A study of Mus musculus with 9 samples.

Results

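The nuclear genes of the respiratory chain were followed across all 9 libraries of a mouse stroke experiment, and complexes I to V were compared. Members were the protein-coding rows of the deposited table whose symbols name a subunit of NADH dehydrogenase (Nduf followed by a, b, c, s or v and a number), succinate dehydrogenase (Sdha to Sdhd), the cytochrome bc1 complex (Uqcr), cytochrome c oxidase (Cox4 to Cox8) or ATP synthase (Atp5). This gave 86 rows with 85 symbols out of 55385 rows, of which 36 belonged to complex I, 4 to complex II, 8 to complex III, 20 to complex IV and 18 to complex V. Ndufa4 and its paralog Ndufa4l2 were placed in complex IV, where the Ndufa4 protein is found. A total of 83 members passed the filter on low values, an FPKM (fragments scaled to exon length and sequencing depth) of at least 0.5 in at least 3 libraries. Cox8b, Cox8c and a second Atp5o row with 0 counts in every library did not.

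All libraries came from total RNA of the brain hemisphere of male C57BL/6 mice aged 8 to 10 weeks, with 3 libraries per group. Mice of the sham group had neck surgery without artery occlusion. In mice labelled tMCAO, for transient occlusion of the middle cerebral artery, a stroke model, a filament blocked the right artery for 90 min before reperfusion. The celastrol group underwent the same tMCAO and was given celastrol, a triterpenoid from the thunder god vine, at 4.5 mg/kg into the peritoneum as reperfusion began. No label states the time between reperfusion and sampling, the number of animals per library or a vehicle injection in the other groups. All p-values therefore reflect only how far these libraries spread, which may be technical. A hemisphere also holds tissue outside the territory of the blocked artery, and in such bulk RNA fewer cells of a type and less RNA per cell cannot be told apart.

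Complexes I and II pass electrons from NADH and succinate to ubiquinone, complex III passes them to cytochrome c and complex IV to oxygen, while complexes I, III and IV pump protons across the inner mitochondrial membrane. Complex V, the ATP synthase, uses the proton gradient to make ATP. Most subunits are encoded in the nucleus and imported into the organelle, and a small set of membrane subunits of complexes I, III, IV and V is encoded in mitochondrial DNA, so the complexes are assembled from products of both genomes. Neurons depend heavily on this pathway, and ischemia deprives complex IV of oxygen.

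Each library held between 60392960 and 75158625 estimated counts, and the members took 0.78% to 0.9%. The first principal component over all genes tested held 31% of the variance and placed the sham libraries between -58.7 and -25.8, the tMCAO libraries between 17 and 58.1, and the celastrol libraries at 44.1, -23.2 and 20.3. Celastrol replicate 2 therefore lay on the sham side of the other treated libraries. Of the neuron markers, all 12 were measured, and their summed level was 8356 to 9317 CPM (counts scaled to library depth by the TMM method of edgeR) in sham. No marker on the neuron list was at 0 in all libraries. The counts of 37 members are uncertain because they overlap another row of the table, 29 of them on the other strand, and no label states how strand was handled in counting. The 47 tested members that overlap no other row gave a like result in tMCAO against sham, with 38 below 0 and a median log2 fold change of -0.10 under TMM scaling.

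The levels per length covered a wide range within each complex, and widest in complex IV, which holds isoforms of other tissues. The median FPKM over the 9 libraries was 30.4 for complex I, 47.8 for complex II, 59.0 for complex III, 51.6 for complex IV and 35.3 for complex V. The members with the highest mean FPKM were Atp5a1 at 237 and Atp5b at 195, the alpha and beta subunits of the catalytic head of ATP synthase, present in several copies per enzyme. Next came Cox6b1 at 193, Cox6a1 at 169, Cox8a at 156 and Cox4i1 at 147, small or regulatory subunits around the core of complex IV. Sdha, the flavoprotein that oxidizes succinate, led complex II at 103, Ndufb9 of the membrane arm led complex I at 97.3, and Uqcrh, the hinge protein that contacts cytochrome c1, led complex III at 88.0. The lowest members were Ndufb2 at 5.25 in complex I, Sdhc, a membrane anchor that holds heme, at 22.6 in complex II, Uqcrq at 24.8 in complex III, Cox7b2 at 0.383 in complex IV and Atp5l at 8.67 in complex V.

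**Figure D1:**
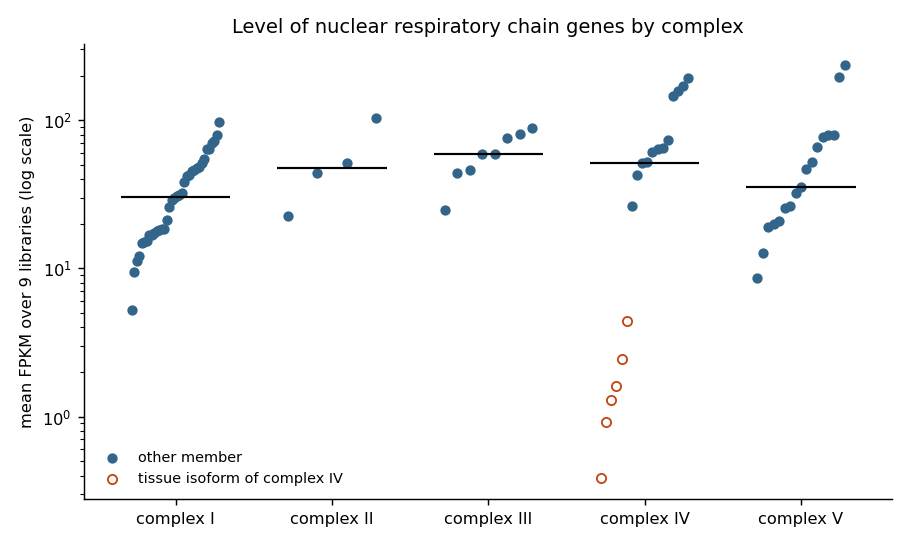
Mean FPKM over 9 libraries (log axis) of the 83 members that passed the filter, by complex. Each point is 1 gene, filled points are the other members, open points are the tissue isoforms of complex IV, and bars mark the complex medians, 30.4 to 59.0. The 6 tissue isoforms lie between 0.383 and 4.40, below all other members.

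The order of levels depends on the length used. The deposited FPKM was found to divide by the length of all annotated exons of a gene, which is 5628 bases for Ndufb2 and 6443 for Atp5l, whereas their principal transcripts hold 455 and 544 bases. Per kilobase of principal transcript, Ndufb2 reached 73.4 CPM and Atp5l 116 CPM, and the medians became 60.5 for complex I, 77.9 for complex II, 119 for complex III, 104 for complex IV and 135 for complex V. On that scale Atp5b was highest at 488 CPM per kilobase, followed by Cox4i1 at 344 and Atp5a1 at 339.

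Tissue isoforms of complex IV replace a widely expressed partner in muscle, testis or lung, and 6 of them passed the filter in these libraries. Each formed a small share of its pair. In sham, Cox4i2, the oxygen-responsive partner of Cox4i1 known from lung and pericytes, made up 1.08% ± 0.397 (SD, n = 3) of the FPKM of the pair. The muscle isoform Cox6a2, also known from parvalbumin interneurons, made up 2.16% ± 0.46, the testis isoform Cox6b2 0.402% ± 0.139, and Cox7b2 0.679% ± 0.335 of its pair with Cox7b. Cox7a1, a heart and muscle isoform, made up 0.962% ± 0.551 of its trio. There the widely expressed Cox7a2 held 54.2% ± 7.46 and Cox7a2l 44.9% ± 7.99. Cox7a2l is described as joining complexes III and IV into supercomplexes, and its function in these mice was not examined. Ndufa4l2, a paralog known to be induced by hypoxia, made up 3.49% ± 0.664 of its pair with Ndufa4. Per length of principal transcript the sham shares were 0.574% for Cox4i2, 1.77% for Cox6a2, 0.864% for Cox6b2, 0.568% for Cox7b2, 0.947% for Cox7a1 and 1.38% for Ndufa4l2. Cox8b, a muscle isoform below the filter, had 4, 0 and 0 counts in sham, 26, 0 and 8 in tMCAO and 62, 0 and 15 with celastrol, and the testis isoform Cox8c had 0 counts in all 9 libraries. With counting error alone, a library listed at 0 could hold up to 3 counts.

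In complex V the c ring is encoded by 3 genes with the same mature protein, which differ in their import sequences. In sham, Atp5g3 held 58.7% ± 2.1 (SD, n = 3) of their FPKM, Atp5g2 27.2% ± 0.507 and Atp5g1 14.1% ± 1.61. Per length of principal transcript the shares were 45.0% ± 2.58, 25.9% ± 0.185 and 29.1% ± 2.69, so Atp5g3 led on both scales and the order of the other two depended on the scale. Pseudogenes were a further source of uncertainty, since 13 rows that are not protein-coding carry symbols of the same families, among them Ndufb4c with a mean of 544 counts and Atp5pb-ps with a mean of 334.0.

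Many respiratory chain promoters are known to bind NRF1 and the ETS factor GABP, which couple nuclear subunit genes to mitochondrial biogenesis, so the members' promoters were searched for their motifs. RefSeq promoters (GRCm38.p6) were matched for 69 of 85 symbols. The NRF1 consensus, a palindrome and therefore the same on both strands, stood in the 250 bases before the start in 4 of 69 members (5.8%). Among all 27025 genes with a RefSeq promoter it stood in 237 (0.88%). That background was not limited to genes of the deposited table, to expressed genes or to protein-coding genes, whereas all members are protein-coding. The ETS motif CCGGAAGT, searched on both strands, stood in 3 of 69 members (4.3%), against 873 of 27025 genes (3.23%), and no member held both. The stretches with an NRF1 match came from Ndufa11, a membrane arm subunit of complex I (chr17:56717677-56717736, plus strand), Cox6a1 (chr5:115349086-115349145, minus strand), the c ring gene Atp5g2 (chr15:102671055-102671114, minus strand) and Atp5k, subunit e of the ATP synthase membrane part (chr5:108434415-108434474, minus strand). Those with an ETS match came from Uqcr11, the smallest subunit of complex III (chr10:80406853-80406912, minus strand), Uqcrh (chr4:116075071-116075130, minus strand) and Atp5h, subunit d of the peripheral stalk (chr11:115419924-115419983, minus strand). They are shown 5′ to 3′ on the strand of the gene, as they carry the only matches among the members, with the motif in capitals. A match is a description of letters and not of binding.
Ndufa11 promoter: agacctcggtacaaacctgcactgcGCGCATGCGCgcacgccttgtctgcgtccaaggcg
Cox6a1 promoter: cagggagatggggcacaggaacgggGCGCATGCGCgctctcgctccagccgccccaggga
Atp5g2 promoter: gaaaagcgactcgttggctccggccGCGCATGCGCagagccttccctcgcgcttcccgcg
Atp5k promoter: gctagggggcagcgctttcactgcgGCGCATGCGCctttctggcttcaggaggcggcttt
Uqcr11 promoter: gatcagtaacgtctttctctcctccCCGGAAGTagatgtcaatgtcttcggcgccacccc
Uqcrh promoter: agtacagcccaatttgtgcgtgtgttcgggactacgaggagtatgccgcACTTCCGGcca
Atp5h promoter: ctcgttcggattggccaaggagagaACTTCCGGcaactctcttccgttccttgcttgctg

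The last 120 bases before the RefSeq start of Atp5j2 (chr5:145191542-145191661, minus strand, GRCm38.p6) are shown because this gene, subunit f of the membrane part of ATP synthase, had the smallest p of all members in tMCAO against sham. Neither motif was found in its window of 250 bases. The deposited table begins the rows of Atp5j2 and Atp5g2 further upstream than these RefSeq starts, so both stretches lie inside those rows.
Atp5j2 promoter: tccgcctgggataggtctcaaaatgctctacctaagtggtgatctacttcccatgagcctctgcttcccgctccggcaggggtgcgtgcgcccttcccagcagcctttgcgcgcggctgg

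Whether occlusion and reperfusion changed the respiratory chain genes was asked by tMCAO against sham. Most members were slightly lower in tMCAO and none passed the test. Under TMM scaling 65 of 83 members had a fold change below 0, where 49.1% of all genes tested did, and the median log2 fold change was -0.09 over the members and 0.007 over all 16982 genes. When library totals alone were used the median of the members was 0.01 and that of all genes 0.11, so the median of the members lay below that of all genes by 0.097 with the first and 0.096 with the second. With library totals 33 of 83 members (39.8%) were below 0, near the 36.3% of all genes. The sign of the members' median against sham thus flips with library totals. A change of scaling shifts all genes nearly alike, so the difference from all genes could hardly move with it. Without tMCAO replicate 1, under TMM scaling, that difference was -0.031.

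**Figure D2:**
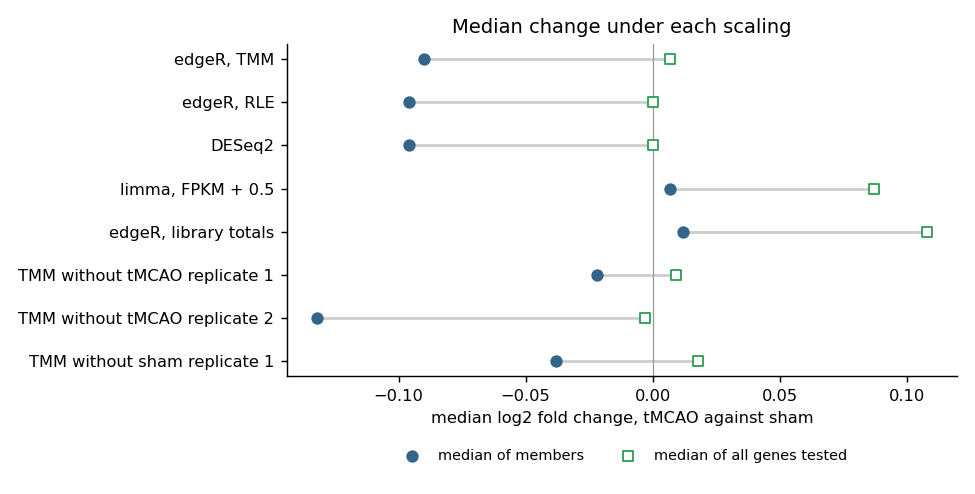
Median log2 fold change of tMCAO against sham over the 83 members (filled circles) and over all genes tested (open squares), under 5 ways of scaling or testing and with TMM after leaving out 1 library. The members' median moves from -0.09 with TMM to 0.01 with library totals, and the median of all genes moves with it, from 0.007 to 0.11.

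By the quasi-likelihood test of edgeR, adjusted after Benjamini and Hochberg, 0 members and 0 genes in all (0%) were called at an adjusted p under 0.05. At an unadjusted p under 0.05 there were 2 members, both lower (2.41%), where 6.36% of all genes tested were lower and 8.56% higher at that level and 14.9% reached it in either direction. DESeq2 called 836 genes and 1 member on the same counts. The tMCAO libraries lay wholly below the sham libraries for 9 members (10.8%) and wholly above for 2 (2.41%), against 11.1% and 12.4% of all genes. The share of members with separated lower levels was thus near the background. The 95% interval of the fold change lay within 1 log2 unit for 79 of 83 members and within 0.5 for 61. Those with an interval that reached beyond 1 log2 unit from 0 were Cox6b2, Cox7a1, Cox7b2 and Ndufa4l2, all tissue isoforms of complex IV.

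**Figure D3:**
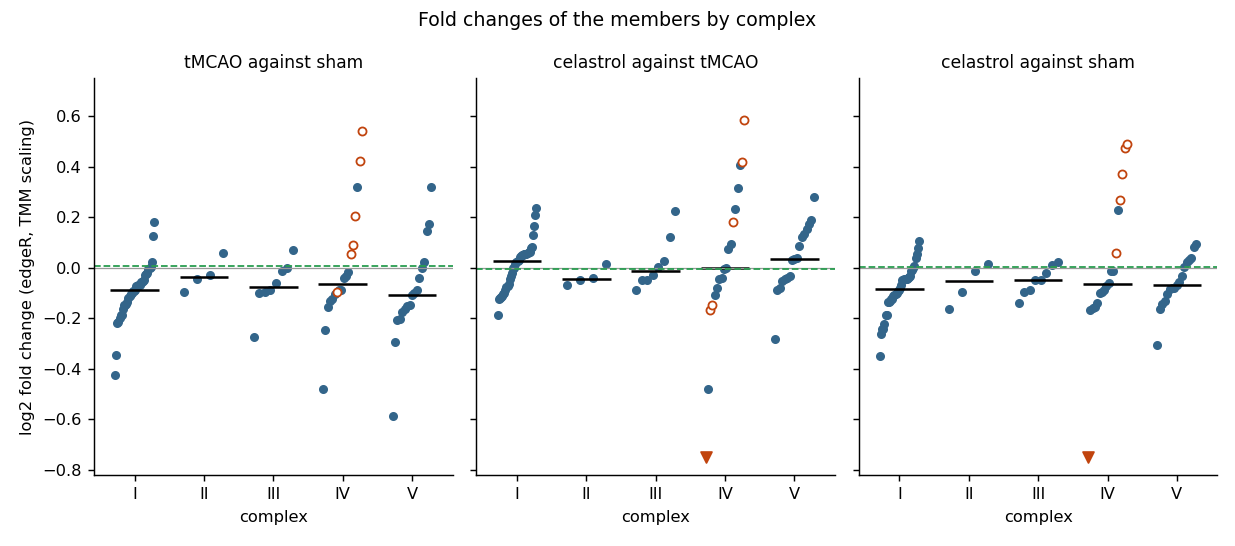
Log2 fold change (edgeR, TMM scaling) of each of the 83 members by complex, in 3 comparisons. Open points are tissue isoforms of complex IV, triangles mark Cox7b2 beyond the axis at -2.50 and -2.08, black bars are complex medians and the dashed line is the median of all genes. In tMCAO against sham all 5 complex medians lie between -0.11 and -0.04.

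No complex stood far from the others in tMCAO against sham, and the change to library totals moved all complex medians upward together with that of all genes. With TMM scaling the median log2 fold change was -0.09 in complex I, -0.04 in complex II, -0.08 in complex III, -0.07 in complex IV and -0.11 in complex V, and with library totals it was 0.01 in complex I, 0.06 in complex II, 0.03 in complex III, 0.03 in complex IV and -0.01 in complex V. Without sham replicate 1 the TMM medians of complexes II, III and IV were -0.008, -0.005 and 0.003, so they rest on that library. With TMM scaling a fold change below 0 was found for 31 of 36 members of complex I, 3 of 4 of complex II, 6 of 8 of complex III, 12 of 18 of complex IV and 13 of 17 of complex V. As a measure that needs no scaling between libraries, the share of each complex in the members' counts was taken. Complex V held 38.0% ± 0.35 (SD, n = 3) in sham, 37.9% ± 0.55 in tMCAO and 38.4% ± 0.26 with celastrol. Complex I held 26.5% ± 0.36, 26.2% ± 0.56 and 26.4% ± 0.3, and complex IV 16.6% ± 0.69, 16.9% ± 1.09 and 16.6% ± 0.17. Complex II held 9.02% ± 0.1, 9.03% ± 0.6 and 8.71% ± 0.17, and complex III 9.87% ± 0.12, 10.0% ± 0.06 and 9.96% ± 0.14. For complexes I, II, IV and V the sham and tMCAO means differed by less than the SD of the tMCAO group. In complex III the tMCAO libraries, at 10.07, 9.98 and 9.97%, lay just above sham at 9.91, 9.74 and 9.96%. In complex II the celastrol libraries, at 8.52, 8.85 and 8.76%, lay below sham at 8.99, 9.13 and 8.94%. These differences were not tested.

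In complex I, which oxidizes NADH, the 20 supernumerary subunits of the membrane arm had the lowest median, at -0.11 with 19 of 20 below 0 under TMM scaling. The 9 supernumerary subunits of the peripheral arm had a median of -0.10 and the 7 core subunits, which carry the flavin and the iron-sulfur clusters, of -0.07. With library totals these medians were -0.01, 0.00 and 0.03. Ndufb2 of the membrane arm was at 43.7, 34.1 and 37.6 CPM in sham and at 20.3, 37.3 and 28.3 in tMCAO (log2 fold change -0.43, SE 0.215, adjusted p = 0.394, edgeR). Its tMCAO replicate 2 lay among the sham libraries, and without tMCAO replicate 1 the fold change was -0.23. Ndufa7, a peripheral arm subunit, was at 37.7, 38.0 and 37.5 CPM in sham and 27.8, 35.3 and 34.3 in tMCAO, which do not overlap (log2 fold change -0.22, SE 0.114, adjusted p = 0.411), and without tMCAO replicate 1 this became -0.12. Of the other members whose tMCAO libraries all lay below sham, chosen after their values were seen, Ndufa1, Ndufb3 and Ndufb6 belong to the membrane arm and Ndufa9 to the peripheral arm, with log2 fold changes of -0.19, -0.14, -0.07 and -0.10. Ndufb9, the complex I member with the highest level, was at 122, 116 and 107 CPM in sham and 111, 121 and 112 in tMCAO, with a log2 fold change of -0.003. Ndufb2 overlaps Braf and 2 further rows, so that its counts are uncertain.

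The 4 genes of complex II, the enzyme shared with the tricarboxylic acid cycle, gave small differences in every comparison. Sdha was at 541, 515 and 480 CPM in sham, 485, 513 and 439 in tMCAO and 416, 471 and 486 with celastrol. Its groups overlapped, and its log2 fold change in tMCAO against sham was -0.10 with a 95% interval of -0.34 to 0.15. The iron-sulfur subunit Sdhb had a fold change of -0.05, and the membrane anchors Sdhc and Sdhd -0.03 and 0.06. In complex III, Uqcr11 was at 32.1, 40.2 and 36.6 CPM in sham and 24.7, 31.4 and 33.9 in tMCAO (log2 fold change -0.27, SE 0.147, adjusted p = 0.423), with overlapping groups, and without tMCAO replicate 1 the fold change was -0.15. The most abundant and the least abundant member of complex III, Uqcrh and Uqcrq, had fold changes of -0.01 and -0.09.

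In complex IV the widely expressed subunits and the tissue isoforms had medians of opposite sign under TMM scaling. Of 11 widely expressed subunits 10 were below 0, with a median log2 fold change of -0.10, and of 6 tissue isoforms 5 were above 0, with a median of 0.15. With library totals the medians were -0.002 and 0.24. The difference between these groups was not tested, and the 6 isoforms had the lowest FPKM of all tested members. Cox6c, a small subunit that spans the membrane (ENSMUSG00000014313, chr15:35925886-35938246, minus strand), had the second smallest p. Its level was 123, 139 and 97.6 CPM in sham and 71.4, 87.0 and 99.3 in tMCAO. The groups overlapped, since sham replicate 3 lay below tMCAO replicate 3, and the log2 fold change was -0.48 (SE 0.171, unadjusted p = 0.0207, adjusted p = 0.263, edgeR). Cox6c overlaps Vps13b on the chromosome, so that its reads are uncertain. Cox8a, a single-pass subunit, was at 112, 125 and 112 CPM in sham and 89.8, 99.4 and 105 in tMCAO. All tMCAO libraries lay below sham, by a log2 fold change of -0.25 (SE 0.112, adjusted p = 0.348).

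Cox4i1, the largest nuclear subunit, was an exception among the widely expressed members. Its level was 281, 240 and 211 CPM in sham, 342, 218 and 356 in tMCAO, and 241, 200 and 215 with celastrol. The 2 highest values were tMCAO replicates 1 and 3, while tMCAO replicate 2 lay within the sham range, giving a log2 fold change of 0.32 (95% interval -0.12 to 0.76). Cox4i1 overlaps Emc8 and Gm20388. Ndufa4l2 was at 2.04, 2.92 and 2.37 CPM in sham and 2.81, 3.60 and 4.25 in tMCAO, with overlapping groups (log2 fold change 0.54, SE 0.287, adjusted p = 0.416). Its share of the pair with Ndufa4 was 5.14% ± 1.19 in tMCAO against 3.49% ± 0.664 in sham, and per principal transcript length 2.05% ± 0.494 against 1.38% ± 0.265.

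In complex V the subunits of the membrane part and of the central stalk had the lowest medians, with tMCAO replicate 1 the lowest library in both. Atp5j2 (ENSMUSG00000038690, chr5:145183698-145192062, minus strand, coordinates of the deposited table, mm10) was at 98.1, 88.9 and 84.9 CPM in sham and 56.2, 61.1 and 63.6 in tMCAO. Every tMCAO library lay below every sham library, and the log2 fold change was -0.59 with a 95% interval of -0.88 to -0.30 (unadjusted p = 0.00138, adjusted p = 0.13, edgeR). It kept its sign under all 19 alternatives, library totals included, with fold changes between -0.64 and -0.48. Its adjusted p was 0.00305 with DESeq2 and up to 0.421 over the alternatives, so the call rests on the tool. The table lists no other row that overlaps Atp5j2. Atp5d, the delta subunit of the central stalk, was at 84.2, 86.0 and 83.0 CPM in sham and 60.8, 77.1 and 68.6 in tMCAO, also without overlap (log2 fold change -0.29, SE 0.13, adjusted p = 0.336).

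Not all of complex V followed this direction. Atp5mpl, a small proteolipid of the membrane part, was at 41.8, 42.2 and 37.7 CPM in sham and 49.1, 52.3 and 50.5 in tMCAO, all higher (log2 fold change 0.32, SE 0.147, adjusted p = 0.352). The peripheral stalk subunit Atp5pb was at 205, 200 and 212 CPM in sham and 220, 236 and 226 in tMCAO, and was named after its values were seen because these 2 members were the only ones with every tMCAO library above sham. Atp5md, another small membrane subunit, was lower without overlap (log2 fold change -0.20, SE 0.096, adjusted p = 0.369). By part of the enzyme, the 5 membrane subunits had a median of -0.18, the 3 central stalk subunits -0.21, the 4 peripheral stalk subunits -0.08, the 3 c ring genes -0.04 and the 2 head subunits -0.04, all with TMM scaling. With library totals the medians were -0.07 in the membrane part and -0.11 in the central stalk, and 0.02, 0.06 and 0.06 in the other three. As an average log2 CPM change from sham, the central stalk was at -0.49, -0.07 and -0.12 in tMCAO replicates 1, 2 and 3. The membrane part was at -0.29, -0.08 and -0.08 there. Among the c ring genes the fold changes were -0.10 for Atp5g1, 0.17 for Atp5g2 and -0.04 for Atp5g3, and the share of Atp5g2 in the ring's FPKM was 30.4% ± 2.63 in tMCAO against 27.2% ± 0.507 in sham.

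**Figure D4:**
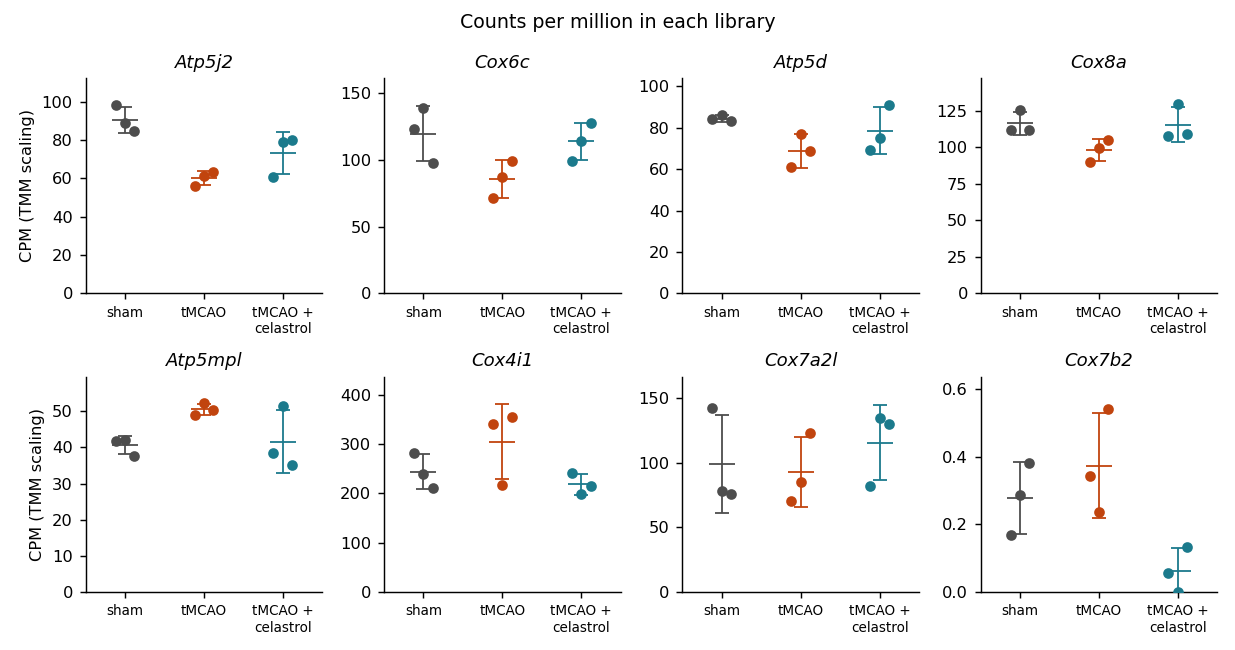
CPM (TMM scaling) of 8 members in each library, with group mean and SD (n = 3), each axis from 0. The tMCAO libraries lie below all sham libraries for Atp5j2, Atp5d and Cox8a and above them for Atp5mpl. Cox7b2 was at 0 to 0.132 CPM with celastrol.

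The lower median in tMCAO was carried by part of the libraries. Averaged over the 83 members, log2 CPM minus its mean in sham was 0.05, 0.02 and -0.07 in the sham libraries and -0.18, 0.03 and -0.07 in tMCAO replicates 1, 2 and 3. Replicate 1 had 58 of 83 members below the lowest sham value, replicate 3 had 41 and replicate 2 had 14. In replicate 2, 23 members lay above the highest sham value. Without tMCAO replicate 1 the median over the members was -0.02 and 50 of 83 were below 0, leaving out sham replicate 1 gave -0.04 and leaving out tMCAO replicate 2 gave -0.13. Without tMCAO replicate 1 the median of complex I was -0.02 and that of complex V -0.05.

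**Figure D5:**
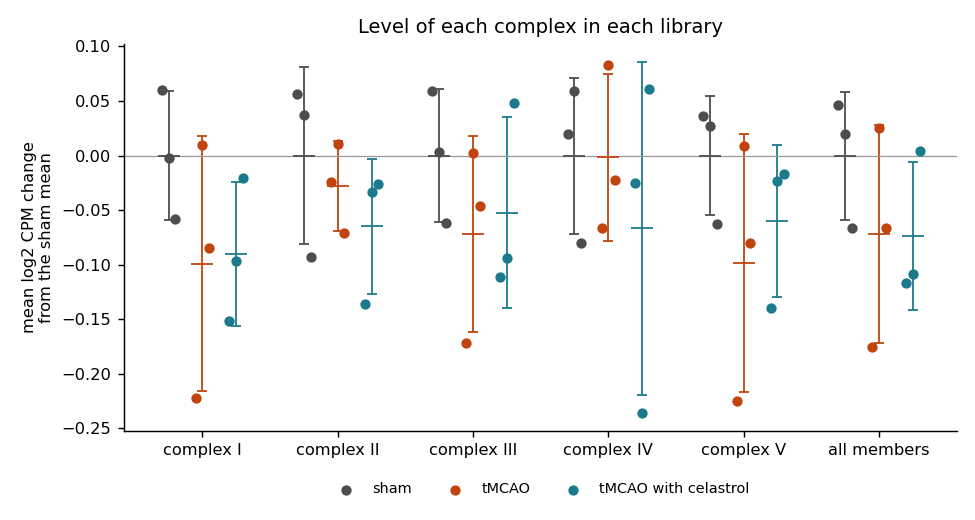
Mean over the tested members of each complex of log2 CPM minus its mean in sham, per library, with group mean and SD (n = 3). In every complex the 3 groups overlap. tMCAO replicate 1 is lowest in complexes I, III and V, at -0.22, -0.17 and -0.23, and celastrol replicate 2 is lowest in complex IV, at -0.24, where the 6 tissue isoforms average -0.62 and the 11 widely expressed subunits -0.10.

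Some members varied between libraries of the same group far more than others. The within-group SD of log2 CPM had a median of 0.12 over the members and 0.28 over all genes tested. The largest SDs were those of Cox7b2 at 0.84, Cox7a1 at 0.81, Cox6b2 at 0.55 and Cox4i2 at 0.48, isoforms with a mean FPKM of 0.383 to 1.61. The next was Cox7a2l with an SD of 0.44, although its mean FPKM was 61.2. Its level was 143, 78.2 and 75.5 CPM in sham, 70.5, 84.8 and 123 in tMCAO and 82.4, 135 and 130 with celastrol. Values of 123 or more and values of 84.8 or less occurred in every group, and no library lay between them. Its fold changes of -0.09 in tMCAO against sham and 0.32 in celastrol against tMCAO therefore had 95% intervals of -0.80 to 0.62 and -0.39 to 1.02.

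Celastrol against tMCAO asked what the drug changed after occlusion, and the members as a group had no common direction. With TMM scaling 40 of 83 were below 0 (50.7% of all genes) and 43 above, with a median of 0.01 against -0.004 over all genes, and with library totals the medians were -0.03 and -0.05. The sign of this median turned when 1 library was left out, to -0.05 without tMCAO replicate 1 and -0.03 without celastrol replicate 3. By edgeR 0 members and 0 genes (0%) passed an adjusted p under 0.05. There were 3 members at an unadjusted p under 0.05, 2 lower and 1 higher, where 4.11% of all genes tested reached it (1.86% lower, 2.25% higher), and DESeq2 called 18 genes and 0 members. Complex medians were 0.03 in complex I, -0.05 in complex II, -0.01 in complex III, 0.00 in complex IV and 0.04 in complex V. The 95% interval lay within 1 log2 unit for 77 of 83 members and within 0.5 for 68. Groups did not overlap for 2 members that were lower and 4 that were higher, or 2.41% and 4.82%, beside 4.13% and 3.73% of all genes.

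Several of the members that were lowest in tMCAO were nearer to sham with celastrol, but these 2 comparisons share the tMCAO libraries, so that a high or low tMCAO value enters both with opposite sign. Cox6c was at 99.5, 115 and 128 CPM with celastrol, all above the tMCAO libraries (log2 fold change 0.41, SE 0.171, unadjusted p = 0.0411, adjusted p = 0.976, edgeR). Atp5j2 was at 60.8, 78.9 and 80.1 CPM, with replicate 1 inside the tMCAO range and the other two between tMCAO and sham (log2 fold change 0.28, 95% interval -0.01 to 0.57, adjusted p = 0.976). Cox8a was at 107, 129 and 109 CPM, all above tMCAO (log2 fold change 0.23, SE 0.112, adjusted p = 0.976). Smaller differences were found for Ndufa7 at 0.21 and Uqcr11 at 0.22, and for Atp5mpl at -0.28, where celastrol replicates 1 and 3 lay in or near the sham range and replicate 2 in the tMCAO range. Without tMCAO replicate 1 the values of Ndufa7 and Uqcr11 were 0.11 and 0.10, without celastrol replicate 2 those of Cox8a and Atp5mpl were 0.14 and -0.46, and without celastrol replicate 3 that of Atp5mpl was -0.18. Cox4i1 was lower with celastrol by a log2 fold change of -0.48 (SE 0.193, unadjusted p = 0.0348, adjusted p = 0.976), with overlap through tMCAO replicate 2.

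Cox7b2, the testis-type partner of Cox7b (chr5:71442824-71548205, minus strand), had the smallest p in both comparisons with celastrol and very few counts. It had 12, 17 and 22 counts in sham, 25, 17 and 35 in tMCAO and 4, 0 and 10 with celastrol. The celastrol libraries lay below all others, by log2 fold changes of -2.50 from tMCAO (unadjusted p = 0.0157, adjusted p = 0.976, edgeR) and -2.08 from sham (adjusted p = 0.548). The size depended on the setting, from -3.61 to -0.90 against tMCAO over the alternatives, and without celastrol replicate 2 it was -1.96. Its FPKM reached the minimum of 0.5 only in sham replicate 3 and tMCAO replicates 1 and 3, so it entered the test through the groups where it is high, which favours a lower celastrol value, and its rank by p is a description. With a filter at an FPKM of 1 it was not tested. Cox6a2 was at 2.95, 3.70 and 2.27 CPM in sham, 3.33, 3.35 and 2.58 in tMCAO and 4.84, 4.07 and 3.49 with celastrol. All celastrol libraries lay above tMCAO (log2 fold change 0.42, SE 0.26, adjusted p = 0.976), while sham replicate 2 overlapped them (0.48 against sham, adjusted p = 0.673, and 0.32 without sham replicate 3).

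As for other cell types that express these isoforms, 1 of 8 skeletal muscle markers passed the filter, and the 8 summed to 7.09 to 9.77 CPM in sham, 7.77 to 12.8 in tMCAO and 8.98 to 14.4 with celastrol. Among the 8, Tnnt3 was at 0 in the 3 sham libraries and in celastrol replicates 2 and 3, and Ckm and Tnnc2 were at 0 in some libraries. Acta1 was at 4.13 to 9.38 CPM over all libraries, and Mylpf, Myh1, Myh4 and Atp2a1 were above 0 in every library. The 4 parvalbumin interneuron markers summed to 325 to 550 CPM in sham, 260 to 544 in tMCAO and 350 to 510 with celastrol. The part of these cells in the levels of Cox6a2, Cox7a1 and Cox8b was not tested.

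Celastrol against sham compared treated occlusion with no occlusion. The median log2 fold change over the members was -0.07 with TMM scaling and -0.01 with library totals, beside 0.003 and 0.06 over all genes. With the first, 63 of 83 members were below 0 (49.6% of all genes), and with the second 44 (53%, beside 40% of all genes). The median of the members lay below that of all genes by 0.073 and 0.076, a difference that scaling could hardly move. Leaving out 1 library moved the TMM median between -0.11 (without celastrol replicate 3) and -0.03 (without sham replicate 1). Again 0 members passed the adjusted p under 0.05 by edgeR or DESeq2, where edgeR called 1 gene (0.00589%) and DESeq2 380. At an unadjusted p under 0.05 there were 2 members, Cox7b2 and Atp5j2, both lower, while 2.81% of all genes were lower, 5.69% higher and 8.51% reached it in either direction. The complex medians were -0.09 in complex I, -0.05 in complexes II and III, -0.07 in complex IV and -0.07 in complex V. Without sham replicate 1 they were -0.05 in complex I, -0.03 in complex II, -0.04 in complex IV and -0.02 in complex V, and without celastrol replicate 1 that of complex III was -0.02. All 11 widely expressed subunits of complex IV were below 0 with TMM scaling, with a median of -0.09, and 8 of 11 with library totals, with a median of -0.04. For 7 members the celastrol libraries lay wholly below sham (8.43%, beside 5.54% of all genes) and for 0 wholly above (7.89% of all genes).

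Atp5j2 was below sham in all celastrol libraries, with a log2 fold change of -0.31 (95% interval -0.60 to -0.02, unadjusted p = 0.0406, adjusted p = 0.556, edgeR). Without celastrol replicate 1 this was -0.19. Ndufb1-ps, a row that the table marks as protein-coding despite the pseudogene suffix, belongs to the membrane arm of complex I. It was at 30.3, 29.0 and 29.1 CPM in sham, 27.0, 31.1 and 27.0 in tMCAO and 23.6, 26.5 and 24.6 with celastrol. Its celastrol libraries lay below all the others, by -0.24 from sham (SE 0.109, adjusted p = 0.595) and -0.19 from tMCAO (adjusted p = 0.976), and it overlaps Cpsf2. Ndufa8, a twin-cysteine subunit of the same arm, was at 88.9, 89.1 and 75.4 CPM in sham, 71.9, 77.3 and 76.8 in tMCAO and 71.0, 74.5 and 77.2 with celastrol. Its groups overlapped through sham replicate 3 (log2 fold change -0.19 against sham, SE 0.1, adjusted p = 0.668). Differences of the same order against sham were found for Ndufb5 at -0.35, Ndufa11 at -0.26, Atp5md at -0.17, Sdha at -0.16 and Cox7a2 at -0.16, and none of these passed the adjusted threshold. Without celastrol replicate 1 those of Ndufb5, Ndufa11 and Sdha were -0.22, -0.13 and -0.10.

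The subunits encoded in mitochondrial DNA, which complete the same complexes, had lower fitted levels in tMCAO, none past the adjusted threshold. With TMM scaling all 13 had a fold change below 0 in tMCAO against sham, with a median of -0.22, and with library totals 12 of 13 did, with a median of -0.12. At an unadjusted p under 0.05 there were 3, all lower (mt-Nd2, mt-Nd4 and mt-Nd4l, subunits of complex I), where 6.36% of all genes tested were lower at that level. The adjusted p of mt-Nd2 was 0.279 by edgeR. The tMCAO libraries lay wholly below sham for 9 of the 13, beside 11.1% of all genes, and these transcripts come from 1 genome and are not independent. Their summed level per summed level of the nuclear members, which needs no scaling, was 7.47, 7.90 and 7.89 in sham, 7.70, 6.77 and 6.81 in tMCAO and 7.54, 7.84 and 5.96 with celastrol. tMCAO replicates 2 and 3 and celastrol replicate 3 were below all sham libraries, and the other 3 treated libraries were not. By complex, mitochondrial per nuclear counts averaged 10.4 ± 0.35 (SD, n = 3) in sham and 9.33 ± 0.72 in tMCAO for complex I, 8.79 ± 0.69 and 8.17 ± 0.35 for complex III, and 22.6 ± 2.45 and 20.6 ± 1.51 for complex IV. For complex V the ratio ranged from 0.49 to 1.78 across single libraries, with sham replicate 1 and tMCAO replicate 1 above 1.6. In these libraries mt-Atp6 was at 4763 and 4256 CPM, and in the others at 814 to 1164. The level of mt-Atp8 was 820 to 1195 CPM over all libraries. The high mt-Atp6 values also enter the summed ratios of sham replicate 1 and tMCAO replicate 1 above. The library with the lowest nuclear members, tMCAO replicate 1, was not the one with the lowest mitochondrial transcripts.

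Other genes of the pathway were taken from lists that had been drawn up with earlier results of these data known. In tMCAO against sham, with TMM scaling, 32 of 49 assembly factors were below 0 with a median of -0.05, and with library totals 20 of 49 were, with a median of 0.06. Without tMCAO replicate 1 the median of the assembly factors was -0.002. Of them 3 were lower and 1 higher at an unadjusted p under 0.05, beside 6.36% and 8.56% of all genes. For 17 genes of the tricarboxylic acid cycle the median was -0.04 with 14 below 0, and with library totals it was 0.06 with 5 below 0. For 30 mitochondrial ribosomal proteins it was 0.00, and for 16 regulators of mitochondrial biogenesis -0.10 with 9 below 0. The 16 tested genes of electron entry and carriers had a median of -0.03, and the 29 tested genes of glycolysis and the hypoxia response also -0.03. None of these lists held a gene called by edgeR. The 30 cytosolic ribosomal proteins went the other way from the members, with all 30 above 0, also with library totals, a median of 0.27 with TMM scaling and 18 higher at an unadjusted p under 0.05, beside 8.56% of all genes.

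Markers of several cell types differed between the groups. The summed level of the 12 neuron markers was 6935 to 7774 CPM in tMCAO, below the 8356 to 9317 of sham, and 6969 to 10240 with celastrol, and 9 of 12 were below 0 in tMCAO against sham with a median of -0.23, or 8 of 12 with a median of -0.13 with library totals. That sum was 7774, 7388 and 6935 CPM in tMCAO replicates 1, 2 and 3, and Snap25 weighed most in it, at 2686, 2636 and 1896 CPM. With celastrol the sum was 6969, 10240 and 7281 CPM in replicates 1, 2 and 3, and 48, 38 and 16 of 83 members lay below the lowest sham value there. The order of the tMCAO libraries depends on the measure, since replicate 1 was highest by the sum and replicate 2 by the average that follows. As an average log2 CPM change from sham, the neuron markers were at -0.25, -0.17 and -0.28 in tMCAO replicates 1, 2 and 3. The members were at -0.18, 0.03 and -0.07 there. With celastrol the neuron markers were at -0.24, 0.07 and -0.09 and the members at -0.12, -0.11 and 0.004. The 5 neutrophil and monocyte markers tested were all above 0 in tMCAO against sham, and the 6 on the list summed to 7.45 to 10.3 CPM in sham and 21.5 to 55.2 in tMCAO. Tissue outside the cortex also differed between libraries: the 5 choroid plexus markers summed to 9.77 to 46.8 CPM in sham, 16.7 to 486 in tMCAO and 7.40 to 1792 with celastrol, and the 4 thalamus markers to 43.9 to 210, 56.8 to 533 and 43.0 to 271. The 5 striatum markers summed to 90.4 to 559 CPM in sham, 163 to 347 in tMCAO and 91.0 to 200 with celastrol. All 5 were below 0 in both comparisons with celastrol, and 4 of 5 in tMCAO against sham. In celastrol against sham their median was -1.97, and 2 were lower at an unadjusted p under 0.05, beside 2.81% of all genes. The 4 endothelial markers summed to 214 to 273 CPM in sham, 283 to 358 in tMCAO and 310 to 431 with celastrol. The 5 astrocyte markers summed to 1483 to 1916 CPM in sham and 2183 to 2837 in tMCAO, although 3 of the 5 were below 0. The 4 erythrocyte markers summed to 136.5 to 252 CPM in sham, 82.5 to 431.5 in tMCAO and 52.2 to 71.6 with celastrol, and all 4 were lower with celastrol than in tMCAO at an unadjusted p under 0.05, beside 1.86% of all genes. The part of neuron content, of infiltrating cells or of the tissue sampled in the members' values was not tested.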

How the data were processed

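RNA was depleted of ribosomal RNA and read as paired ends, per the labels' protocols. The authors deposited 1 table with an estimated count and an FPKM per gene and library. The tools named are StringTie 1.3.4d, HISAT2 2.0.4, cutadapt 1.9, DESeq2 and edgeR, and the build is mm10, per the submitters' processing notes, which state no roles here. The deposited estimated counts are whole numbers, 60392960 to 75158625 per library. The deposited FPKM equals depth-scaled counts per length of all annotated exons (GENCODE M21) within 2% for 98.6% of 12752 genes with more than 500 counts, and lists 0 counts as 0.0001.

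One model with a mean for each group was fitted to the 9 libraries over the 16982 genes that reached an FPKM of 0.5 in 3 or more of them (edgeR 4.0.16 in R 4.3.3, TMM, glmQLFit and glmQLFTest, two-sided, Benjamini-Hochberg over all genes, threshold 0.05). The SE is the log2 fold change over the root of the F statistic, and 95% intervals use the same fit. DESeq2 1.42.0, limma 3.58.1 on log2(FPKM + 0.5), other filters and scalings, the replicate number as a block and leaving out each library were alternatives. On simulated data edgeR called 43 of 50 genes lowered by 1 log2 unit and 48 of 50 raised by 1 for tMCAO against sham, with 7 false calls among 16982 genes. The simulated libraries were given a smaller spread between replicates than these data, for which edgeR fitted a common dispersion of 0.0963. The simulation therefore checks the code and does not give the power of the real test. Every pair of libraries differed beyond sampling noise, with a chi-square of 69.0 or more per degree of freedom. Promoters are from RefSeq (GRCm38.p6).

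The members and the gene lists were chosen with earlier results of these data known, so they are described by counts and medians, without tests of a list. Named are, per comparison, the 10 members with the smallest unadjusted p, with values in every library for the first 5, the highest and the lowest member of each complex by FPKM, the paralog sets, complex II, any member called and the inhibitor of complex V, for which no row matched.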

Additional observations from a re-analysis of the deposited data

How the results depend on the processing

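Depth did not limit the abundant members, but with 3 libraries per group the median SE was 0.114 log2 units, and the isoforms with few counts had wider intervals. Of 568 values of 30 named fold changes under the alternatives, 567 kept their direction and their side of the threshold, and the exception was Atp5j2 with DESeq2. These 30 had the smallest p in the main fit and none passed there, so that outcome was nearly fixed in advance. Several alternatives also left out only a library of the group not compared. The count is therefore no measure of stability, and medians over the members did change sign. Library totals were chosen as an alternative after seeing the data. The causes of the differences below were not tested.

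The counts of all genes called, 0 in tMCAO against sham, 0 in celastrol against tMCAO and 1 in celastrol against sham, were 836, 18 and 380 with DESeq2, which also called 1 member in the first comparison. In tMCAO against sham they were 3 with limma and a pseudocount of 0.1, 2 with the newer quasi-likelihood form and 30 with only the 2 groups compared. In celastrol against sham they were 6, 6 and 4 under those settings, 0 with limma and a pseudocount of 0.5, 2 with an FPKM of at least 1 and 3 with no filter.

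The members at an unadjusted p under 0.05, 2 in tMCAO against sham, were 5 with DESeq2 and with library totals, and 4 with RLE size factors, either limma setting or only the 2 groups. In celastrol against sham, 2 became 1 with library totals or an FPKM of at least 1, and 0 with no filter or only the 2 groups. The share of all genes at that level is not given under these settings. The counts therefore do not show whether the members differ from all genes. In the main fit that share was 14.9% in tMCAO against sham and 8.51% in celastrol against sham.

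The median log2 fold changes of tMCAO against sham with library totals were 0.012 over all members, 0.012 in complex I, 0.063 in complex II, 0.025 in complex III and -0.009 in complex V. With limma they were 0.007 over all members, 0.002 in complex I, 0.022 in complex III, 0.042 in complex IV and -0.013 in complex V with either pseudocount, and in complex II 0.059 with 0.1 and 0.058 with 0.5.

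Leaving out 1 library at a time gave 0 to 91 genes called in tMCAO against sham, 0 to 2 in celastrol against tMCAO and 0 to 46 in celastrol against sham. Members at an unadjusted p under 0.05 ranged from 1 to 7, 1 to 4 and 0 to 3, again without the share of all genes beside them. The median of complex IV in celastrol against tMCAO ranged from -0.054 to 0.117 and that of complex V in tMCAO against sham from -0.198 to -0.048.

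Libraries with the same replicate number did not deviate together (correlations of -0.156 to 0.198), so the number is not taken as a pairing. With the replicate number as a block, 51 genes were called in tMCAO against sham and 22 in celastrol against sham. There 5 and 1 members reached an unadjusted p under 0.05, and the share of all genes at that level is not given.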
